A study of Mus musculus with 16 samples.

Results

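Of the 38924 genes counted in the periaqueductal gray of mice, 6 genes of corticosteroid reception and its feedback were followed across the study's 4 groups: Nr3c1, Nr3c2, Fkbp5, Fkbp4, Hsd11b1 and Tsc22d3. They were chosen by symbol for what they encode, namely the 2 corticosteroid receptors, a pair of co-chaperones, the enzyme that regenerates active hormone and a hormone-induced repressor. The periaqueductal gray is a midbrain region of the descending pain control pathway on which opioids act. The study asked how morphine tolerance and RGSz1, a regulator of G protein signalling encoded by Rgs20, affect gene expression there. PolyA RNA was sequenced in 16 libraries, each pooled from tissue punches of 2 male mice, with 4 libraries in each of 4 groups. The groups were wild-type mice left naive, wild-type mice given morphine, mice labelled RGSz1 KO left naive and mice labelled RGSz1 KO given morphine. The labels name no vehicle group, dose or duration, so effects of handling and injection cannot be told apart from those of the drug.

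Glucocorticoids such as corticosterone enter the brain from the blood and bind receptors held in the cytoplasm by Hsp90 and its partners. The glucocorticoid receptor, encoded by Nr3c1, has a lower affinity for corticosterone than the mineralocorticoid receptor, encoded by Nr3c2, and is the receptor that mainly responds when hormone levels rise with stress. The co-chaperone encoded by Fkbp4 favours hormone binding and transport of the receptor to the nucleus, whereas that encoded by Fkbp5 lowers hormone binding. Fkbp5 is itself induced by the receptor and so closes a short negative feedback loop. Tsc22d3 encodes GILZ, a receptor-induced leucine zipper protein that restrains inflammatory transcription factors. Hsd11b1 encodes a dehydrogenase that converts the inactive keto form of corticosterone back to the active hormone inside cells.

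Fkbp5 and Tsc22d3 were higher with morphine in both genotypes, and the start regions of these genes are shown because both are known targets of the receptor. Of the 6 genes, 5 had an entry in the RefSeq promoter table (GRCm38.p6), with 7 start windows reaching from 250 bases before to 50 bases after each start. Each window was searched on both strands for the full glucocorticoid response element (AGAACA and TGTTCT with any 3 bases between them), for a looser form (GNACA and TGTNC with any 3 bases between them, which includes the full element) and for the short site AGAACA, which the full element also contains. The full element was in 3 of all 32851 windows of the table (0.009%), the looser form in 156 (0.475%) and the short site in 6233 (18.974%). None of the 7 windows of these genes held the full or the looser form, and 1 window, the most upstream of 3 starts of Tsc22d3, held the short site, in reverse orientation, from position 66 counted from the 5′ end of the window. In the sequences below, both on the minus strand and read 5′ to 3′, capitals mark that site. A match or its lack describes these letters in this window alone.
Fkbp5, chr17:28486100-28486399: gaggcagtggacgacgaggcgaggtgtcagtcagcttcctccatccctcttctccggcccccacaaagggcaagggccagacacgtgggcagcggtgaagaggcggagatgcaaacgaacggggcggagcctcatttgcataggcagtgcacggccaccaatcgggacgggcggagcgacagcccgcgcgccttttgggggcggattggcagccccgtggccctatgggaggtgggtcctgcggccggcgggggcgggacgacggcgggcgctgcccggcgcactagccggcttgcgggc
Tsc22d3, chrX:140600473-140600772: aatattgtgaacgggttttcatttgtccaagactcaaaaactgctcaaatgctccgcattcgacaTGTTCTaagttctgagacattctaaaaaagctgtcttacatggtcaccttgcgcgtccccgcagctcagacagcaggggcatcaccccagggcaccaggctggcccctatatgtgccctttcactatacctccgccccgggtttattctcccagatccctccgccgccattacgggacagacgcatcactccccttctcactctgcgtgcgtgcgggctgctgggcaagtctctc

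Before the genes themselves, some features of the libraries bear on how their values can be read. Total counts over genes were 19.1 to 55.0 M (mega counts) per library, lowest in morphine libraries labelled knockout (27.4 ± 9.51 M, mean ± SD, n = 4). Counts of Rgs20, whose product RGSz1 the knockout targets, showed no drop under the knockout label, at 11.6 to 13.4 CPM (counts scaled by TMM to a library of 1 mega count) in wild-type naive and 11.9 to 14.0 in knockout naive libraries, with 11.9 to 14.4 and 11.4 to 13.0 under morphine. Rgs20 shares 127 exon bases with Atp6v1h on the other strand, a gene with a mean count of 6231.75, and the library kit does not mark the strand. The counts do not show which exons were read, so genotype is given below as labelled. Libraries wild-type naive 2 and knockout morphine 3 stood apart by markers of meningeal fibroblasts (mean centred log2 CPM of 2.54 and 2.07). Knockout morphine 1 was also raised, at 0.84, and the other 13 libraries lay between -0.66 and -0.17. The summed level of these markers was 495 and 353 CPM in the first 2, 142 CPM in knockout morphine 1 and 58.3 to 77.4 CPM in the others. Neuron, astrocyte and oligodendrocyte markers were abundant in every library, with summed levels of 5148 to 6404, 4403 to 4871 and 6599 to 11817 CPM.

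**Figure D1:**
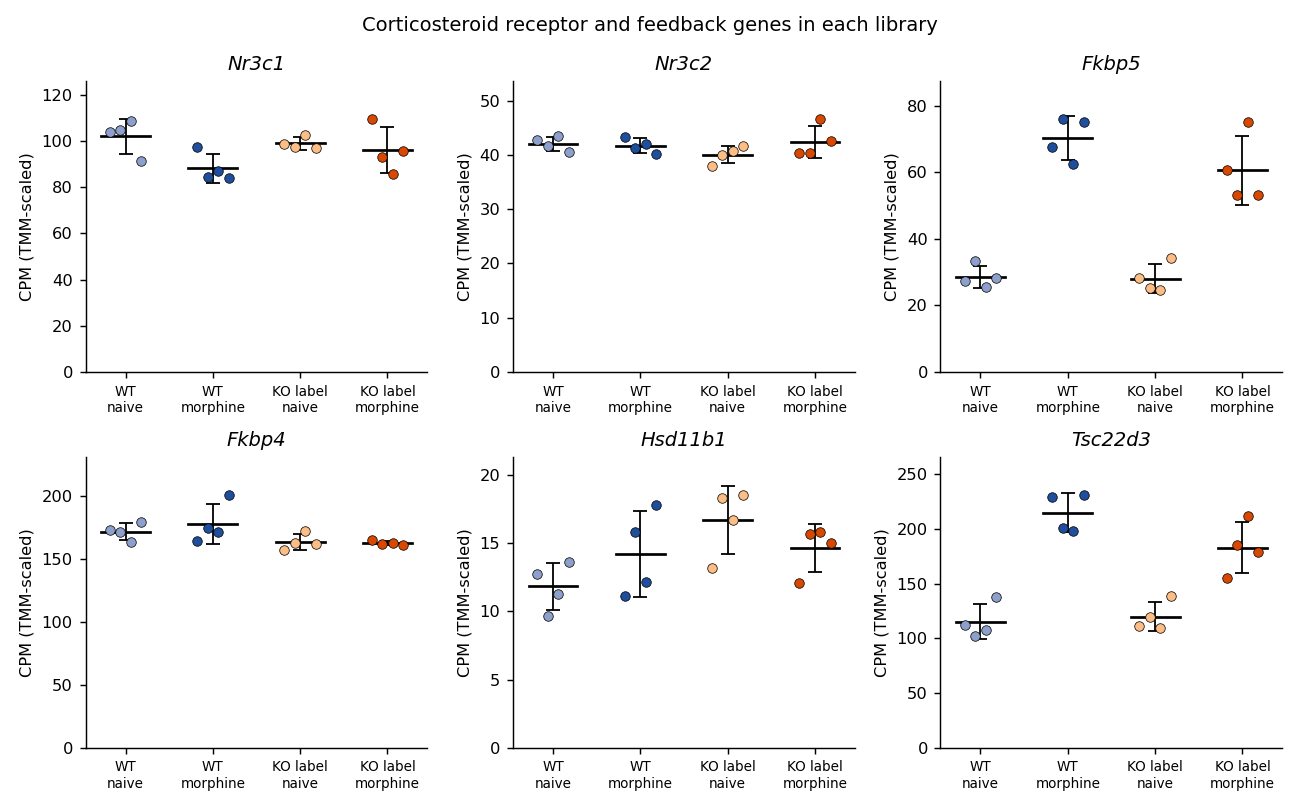
Level of each gene in each of the 16 libraries (vertical axis, TMM-scaled CPM, starting at 0; 1 point per library, line and bars for group mean ± SD, n = 4). Fkbp5 and Tsc22d3 sit higher in both morphine groups with no overlap with the naive group of the same genotype, while the groups of the other genes overlap.

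Per length of their exons, the 6 genes differed widely in level in the wild-type naive libraries. Fkbp4 was highest at 61.5 ± 2.28 CPM per kb, above 96.9% of the 17888 tested genes with a known length. Tsc22d3 followed at 26.5 ± 3.65, then Nr3c1 at 13.3 ± 0.98 and Nr3c2 at 6.50 ± 0.20 CPM per kb. Fkbp5, at 3.03 ± 0.34, and Hsd11b1, at 2.78 ± 0.41 CPM per kb, lay below the median gene and overlapped each other (2.70 to 3.51 and 2.28 to 3.20), whereas no other neighbours in this order overlapped. With morphine, Fkbp5 reached 7.43 ± 0.68 CPM per kb in wild-type and 6.40 ± 1.10 in knockout-labelled libraries. It then overlapped Nr3c2 (6.44 ± 0.20 and 6.56 ± 0.46), from which it had been clear when naive.

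Among the receptors, Nr3c2 showed little difference between groups, and Nr3c1 was somewhat lower with morphine in wild-type libraries without passing the test. Nr3c1 (ENSMUSG00000024431; chromosome 18, 39410545 to 39519421, minus strand, GRCm38) read 103.6, 104.6, 108.5 and 91.1 CPM in the 4 wild-type naive libraries. In the wild-type morphine libraries it read 97.4, 84.2, 87.1 and 84.0 CPM. Of the morphine libraries, 3 lay below all naive ones, and morphine 1 lay above naive 4. This gave a log2 fold change of -0.21 ± 0.07 (SE), which is 86.4% of the naive level (95% interval 78.3 to 95.4%), with an adjusted p = 0.0898 by the quasi-likelihood test of edgeR, Benjamini-Hochberg adjusted. The call depended on the tool and the libraries: DESeq2's Wald test gave an adjusted p = 0.0444, and edgeR gave 0.0246 without wild-type naive 4 and 0.0412 without knockout morphine 1. Over 27 alternatives the adjusted p ran from 0.0246 to 0.293, and 3 passed 0.05. In the libraries labelled knockout, Nr3c1 read 98.5, 97.1, 102.7 and 97.0 CPM when naive. With morphine it read 109.4, 92.9, 85.4 and 95.7 CPM there, on both sides of the naive range, and the log2 fold change was -0.04 ± 0.07 (edgeR adjusted p = 0.768). Averaged over genotypes it was -0.13 ± 0.05 (edgeR adjusted p = 0.0822), and edgeR gave 0.0264, 0.0381 and 0.0141 without wild-type naive 4, wild-type morphine 1 and knockout morphine 1. These were the 3 of 26 alternatives that passed for the average. Over all 26 the adjusted p ran from 0.0141 to 0.757 and the log2 fold change from -0.16 to -0.05.

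Nr3c2 (ENSMUSG00000031618; chromosome 8, 76899442 to 77245012, plus strand) had the narrowest spread of the 6 genes. It read 42.8, 41.6, 43.4 and 40.5 CPM in wild-type naive and 43.3, 41.2, 42.1 and 40.3 in wild-type morphine libraries. Under the knockout label it read 38.1, 39.9, 40.7 and 41.6 CPM when naive and 40.3, 40.3, 46.6 and 42.5 with morphine. All 4 groups overlapped. The log2 fold change with morphine was -0.01 ± 0.05 in wild type (95% interval -0.11 to 0.08, edgeR adjusted p = 0.918) and 0.08 ± 0.05 in the knockout label (-0.01 to 0.18, edgeR adjusted p = 0.277). The first changes sign when a marker score of serotonin neurons or of meningeal fibroblasts is added as a covariate (0.0095 and 0.0022). Nr3c2 shares 247 exon bases with Gm10649 on the other strand, a gene with a mean count of 75.6, and the library kit does not mark the strand.

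The ratio of the receptors within a library does not depend on scaling between libraries. The log2 ratio of Nr3c1 to Nr3c2 counts was 1.27, 1.33, 1.32 and 1.17 in wild-type naive and 1.17, 1.03, 1.05 and 1.06 in wild-type morphine libraries. The groups met without overlapping, at 1.1704 in naive 4 and 1.1669 in morphine 1. The difference was -0.20 (0.872-fold; two-sided exact permutation p = 0.0286, which is as low as groups of 4 allow, and 0.0381 adjusted over 4 ratio tests). Leaving out naive 4 gave -0.23 (exact permutation p = 0.0286), and leaving out any other single library of the 8 gave -0.23 to -0.18 (exact permutation p = 0.0571). In the libraries labelled knockout the ratio was 1.37, 1.28, 1.34 and 1.22 when naive and 1.44, 1.20, 0.87 and 1.17 with morphine, a difference of -0.13 (exact permutation test, two-sided, p = 0.343, adjusted 0.343). There the 2 extreme libraries were knockout morphine 1 and 3. Without knockout morphine 1 the difference was -0.22 (exact permutation p = 0.0286), and without knockout morphine 3 it was -0.03 (exact permutation p = 0.714).

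Of the co-chaperones, Fkbp5 rose with morphine more than any other of the 6 genes, and Fkbp4 showed no difference past the threshold. Fkbp5 (ENSMUSG00000024222; chromosome 17, 28399094 to 28517527, minus strand) read 27.5, 33.2, 25.6 and 28.4 CPM in naive wild-type libraries. With morphine it read 67.6, 76.0, 62.5 and 75.2 CPM. The lowest morphine library thus stood far above the highest naive one. The log2 fold change was 1.29 ± 0.13, or 2.45-fold (95% interval 2.02 to 2.96; edgeR adjusted p = 7.86e-05). By p it ranked 27 among the 18111 genes tested, of which 4.41% passed the threshold in either direction and 2.34% were higher. Its morphine and naive groups did not overlap, which held for 5.96% of all genes tested in that direction. The libraries are bulk tissue, so more cells of a type and more RNA per cell cannot be told apart here.

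In the libraries labelled knockout, Fkbp5 read 28.3, 25.1, 24.6 and 34.1 CPM when naive and 60.8, 53.2, 75.2 and 53.1 CPM with morphine. The groups again did not overlap, and knockout morphine 3, 1 of the libraries that stood apart, was the highest of its group. On the log2 scale the difference was 1.10 ± 0.13, or 2.14-fold (95% interval 1.77 to 2.61; edgeR adjusted p = 0.000309). Of all genes tested, 11.5% passed the threshold in this comparison and 5.67% were higher, and for 8.27% the groups did not overlap in that direction. Without wild-type naive 2 and knockout morphine 3 together, Fkbp5 was at 1.37 in wild type (edgeR adjusted p = 2.03e-05) and at 0.99 in the knockout label (edgeR adjusted p = 8.82e-05). Over 27 alternatives it passed the threshold in all 27 in each genotype, with log2 fold changes of 1.23 to 1.40 and 0.98 to 1.21.

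Fkbp4 (ENSMUSG00000030357; chromosome 6, 128429735 to 128438677, minus strand) read 173.0, 171.7, 163.8 and 179.3 CPM in wild-type naive and 164.6, 174.3, 171.7 and 201.2 in wild-type morphine libraries. Under the knockout label it read 156.9, 162.7, 172.5 and 162.3 CPM when naive and 165.2, 162.1, 162.5 and 160.9 with morphine. Wild-type morphine 4 was the highest library of all 16. The log2 fold change with morphine was 0.05 ± 0.05 (95% interval -0.05 to 0.15, edgeR adjusted p = 0.603) in wild type and -0.01 ± 0.05 (-0.11 to 0.10, edgeR adjusted p = 0.952) in the knockout label. The first turned to -0.01 without wild-type morphine 4, and the second to 0.01 with all libraries thinned to the smallest total and to 0.02 without knockout naive 3.

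The balance of the co-chaperones followed Fkbp5. Per exon length, the Fkbp5 level was 4.61 to 5.72% of the Fkbp4 level in wild-type naive and 10.7 to 12.9% in wild-type morphine libraries. It was 4.21 to 6.21% in knockout naive and 9.69 to 13.7% in knockout morphine libraries, so neither pair of groups overlapped. The log2 ratio of their counts differed by 1.25 in wild type and 1.12 in the knockout label, each with the lowest two-sided exact permutation p that groups of 4 allow, 0.0286 (0.0381 adjusted over 4 tests). Leaving out 1 library at a time gave 1.20 to 1.32 and 1.01 to 1.22, with the same p each time.

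**Figure D2:**
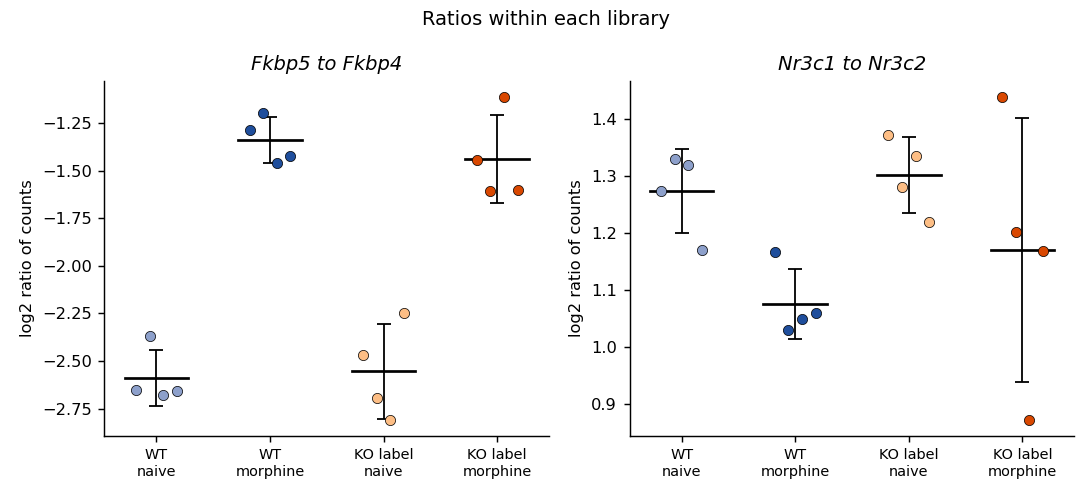
Log2 ratio of counts within each library for Fkbp5 to Fkbp4 (left) and Nr3c1 to Nr3c2 (right); the axes do not start at 0, points are libraries, and line and bars are group mean ± SD (n = 4). On the left the morphine groups sit above the naive ones by 1.25 and 1.12, and on the right the morphine libraries labelled knockout spread from 0.87 to 1.44.

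Tsc22d3 (ENSMUSG00000031431; chromosome X, 140539528 to 140600659, minus strand) also rose with morphine in both genotypes. It read 112.2, 102.4, 107.9 and 138.1 CPM in wild-type naive and 229.1, 200.7, 197.8 and 231.2 CPM in wild-type morphine libraries. The groups did not overlap, and naive 4 was the highest of its group. The log2 fold change was 0.90 ± 0.11, or 1.86-fold (95% interval 1.58 to 2.20; edgeR adjusted p = 0.000358). In the libraries labelled knockout it read 111.7, 119.2, 109.1 and 138.4 CPM when naive and 155.1, 185.3, 211.9 and 179.1 with morphine. These groups did not overlap either, knockout morphine 1 being nearest to the naive range. This was a log2 fold change of 0.61 ± 0.11, or 1.53-fold (95% interval 1.29 to 1.80; edgeR adjusted p = 0.00415). Morphine groups wholly above the naive ones were found for 5.96% of all genes tested in wild type and 8.27% in the knockout label. By p, Tsc22d3 ranked 71 and 388 among the 18111 genes tested. Each gene has 1 count per library, so the 3 starts of Tsc22d3 in the promoter table cannot be told apart.

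Markers of other cells moved with the same comparison. Of all genes tested, 4.41% were called with morphine in wild type and 11.5% in the knockout label, in either direction. An unadjusted edgeR p under 0.05 was found for 20.1% and 25.5% of all genes. Of 10 markers of serotonin neurons, which lie in the neighbouring dorsal raphe, 9 rose under the knockout label. That count was 2, 5, 4 or 3 without knockout naive 2, knockout naive 3, knockout morphine 2 or knockout morphine 4. In wild type 0 were called by edgeR, DESeq2 or limma-voom, and 0 had an unadjusted edgeR p under 0.05. Their summed level was 167 to 408 CPM in knockout naive and 595 to 1788 in knockout morphine libraries, against 267 to 915 and 732 to 950 in wild type. None of the markers was at 0 in all libraries of a group. With the score of these markers as a covariate, Tsc22d3 was at 0.45 on the log2 scale in the knockout label and no longer passed (edgeR adjusted p = 0.173), while Fkbp5 was at 1.19 and still did (edgeR adjusted p = 0.0172). That fit called 351 genes in all, against 2082 without the covariate. The score itself did not overlap between knockout naive (-1.748 to -0.44) and knockout morphine libraries (0.057 to 1.342). Part of a morphine difference in the knockout label thus cannot be told apart from the score in that fit.

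Of 10 oligodendrocyte markers, 7 fell in the knockout label, where they summed 10262 to 11817 CPM in knockout naive and 7126 to 9071 in knockout morphine libraries. The 7 became 3 without knockout naive 2 or knockout morphine 2 or 4, 4 without knockout naive 4, and 10 without both libraries that stood apart. In wild type 0 were called by edgeR, DESeq2 or limma-voom, and 1 had an unadjusted edgeR p under 0.05 (1 was called when wild-type naive 2 was left out). Of 10 endothelial markers, 4 fell in each genotype (Kdr, Cldn5, Slco1a4 and Tek). They summed 180 to 227 CPM in wild-type naive and 155 to 174 in wild-type morphine libraries, with 208 to 234 and 145 to 201 in the knockout label. The wild-type count was 2 when naive 1 or 2 or morphine 1, 2 or 4 of that genotype was left out. In the knockout label it was 7 without both libraries that stood apart and 0 when the serotonin score was added. Of 10 microglia markers 1 fell in wild type and 2 in the knockout label (of all genes, 4.41% and 11.5% were called in either direction). In each genotype 7 had an unadjusted edgeR p under 0.05 (of all genes, 20.1% and 25.5% did). The wild-type microglia count was 4 when wild-type naive 4 was left out and 2 when naive 1 or morphine 1 of that genotype, or knockout morphine 1 or 3, was left out. It was 3 by DESeq2's Wald test and 2 by limma-voom. The knockout-label microglia count was 4 without both libraries that stood apart. Of 8 pericyte and smooth muscle markers 1 fell in wild type and 2 in the knockout label, the latter count being 1 when knockout naive 2 or 4, or morphine 1, 2 or 4 of that label, was left out. Of 10 astrocyte markers 1 fell in wild type, and in the knockout label 1 rose and 2 fell, with 0 or 1 falling in each fit that left out 1 library other than wild-type naive 4 or knockout morphine 1. In the knockout label 2 of 8 neuron markers rose. Of 4 tested markers of noradrenergic neurons edgeR called 0 in either genotype, but in the knockout label all 4 had an unadjusted edgeR p under 0.05 and 3 rose by DESeq2's Wald test and 1 by limma-voom, and edgeR called up to 2 when 1 library was left out. They summed 13.33 to 25.01 CPM in knockout naive and 20.4 to 70.7 in knockout morphine libraries. Apart from the serotonin and meningeal scores used as covariates, the part of these cells in the changes of Fkbp5 and Tsc22d3 was not tested.

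**Figure D3:**
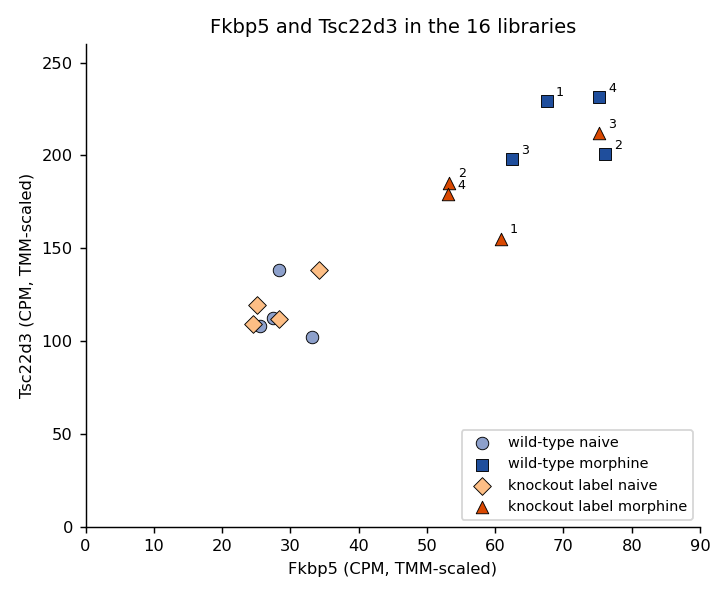
Tsc22d3 level (vertical, TMM-scaled CPM) against Fkbp5 level (horizontal, TMM-scaled CPM) in the 16 libraries, with marker shape and colour for the group and the replicate number beside morphine libraries. The 8 naive libraries lie at or below 34.1 CPM of Fkbp5 and 138.4 of Tsc22d3, and the 8 morphine libraries at or above 53.1 and 155.1.

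Hsd11b1 (ENSMUSG00000016194, chromosome 1, 193221634 to 193264075, minus strand), the hormone-activating enzyme, had the widest within-group spread when pooled over the 4 groups and passed no test with morphine. It read 12.8, 9.7, 11.3 and 13.6 CPM in wild-type naive and 11.1, 15.8, 12.1 and 17.8 in wild-type morphine libraries. Under the knockout label it read 13.2, 18.3, 16.7 and 18.6 CPM when naive and 12.1, 15.6, 15.8 and 15.0 with morphine. The log2 fold change with morphine was 0.27 ± 0.16 in wild type (95% interval -0.07 to 0.60, edgeR adjusted p = 0.364) and -0.19 ± 0.16 in the knockout label (-0.53 to 0.14, edgeR adjusted p = 0.491). Its spread within groups, an SD of 0.241 on the log2 scale, was higher than that of 95.5% of the 1000 genes nearest to it in level. Fkbp5 (0.191) and Tsc22d3 (0.165) were likewise more spread than 97.1% and 98.2% of genes of like level, and Nr3c2 (0.065) was near the middle at 45.3%. In knockout naive libraries Fkbp5 varied more than Hsd11b1, with an SD of 15.6% of the mean against 14.8%. In knockout morphine libraries Fkbp5 (17.2%) and Tsc22d3 (12.8%) both varied more than Hsd11b1 (12.0%).

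Between the genotype labels edgeR called 0 of the 6 genes, whether naive, with morphine or averaged. At an unadjusted edgeR p under 0.05 stood Hsd11b1 among naive libraries, Fkbp4 among morphine libraries, and both on average, where 12.9%, 9.64% and 10.5% of all genes stood. Limma-voom also called 0. Of all genes, 0.906% passed between naive groups, 0.53% between morphine groups and 1.53% on average. Nearest came Hsd11b1 among naive libraries, where 3 of the 4 knockout-labelled libraries lay above all wild-type ones and knockout naive 1 (13.2 CPM) lay below wild-type naive 4 (13.6). It was higher by 0.50 ± 0.16 on the log2 scale, or 1.41-fold (95% interval 1.12 to 1.78; edgeR adjusted p = 0.171). DESeq2's Wald test gave an adjusted p = 0.0456, and the other 26 alternatives did not pass 0.05. With morphine its difference between labels was 0.04 ± 0.16 (edgeR adjusted p = 0.966). Fkbp4 was lower in the knockout label with morphine by a log2 difference of -0.13 ± 0.05 (95% interval -0.23 to -0.03, edgeR adjusted p = 0.373). Fkbp5 differed between labels by -0.03 ± 0.13 when naive and -0.22 ± 0.13 with morphine, and Tsc22d3 by 0.06 ± 0.11 and -0.23 ± 0.11 (edgeR adjusted p = 0.957, 0.617, 0.871 and 0.528). The Fkbp5 value among naive libraries turned positive without wild-type naive 2 (0.06), knockout naive 2 (0.02) or knockout naive 3 (0.03), and that of Tsc22d3 turned to -0.02 without knockout naive 4.

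Whether the morphine difference itself depended on the genotype label was tested by the interaction. The interaction log2 difference was -0.19 ± 0.18 for Fkbp5 (95% interval -0.58 to 0.20), -0.29 ± 0.16 for Tsc22d3 (-0.63 to 0.05) and -0.46 ± 0.22 for Hsd11b1 (-0.93 to 0.02). For Nr3c1 it was 0.17 ± 0.10 (-0.03 to 0.37), for Nr3c2 0.09 ± 0.06 (-0.04 to 0.23) and for Fkbp4 -0.06 ± 0.07 (-0.20 to 0.09). The edgeR adjusted p ran from 0.425 to 0.777, so a difference in response between labels was not shown, and the intervals leave room for one. Over all genes edgeR called 0 interactions (0.0%), limma-voom 0 and DESeq2's Wald test 107, and 2200 genes (12.1%) had an unadjusted edgeR p under 0.05. None of the 6 genes was called by any of them. Without knockout morphine 3 edgeR called 56 genes, and without wild-type morphine 3 it called 16, again none of the 6. Averaged over genotypes, Fkbp5 was higher with morphine by 1.20 ± 0.09 and Tsc22d3 by 0.75 ± 0.08 (edgeR adjusted p = 3.42e-06 and 3.26e-05), in a comparison where 17.1% of genes passed.

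**Figure D4:**
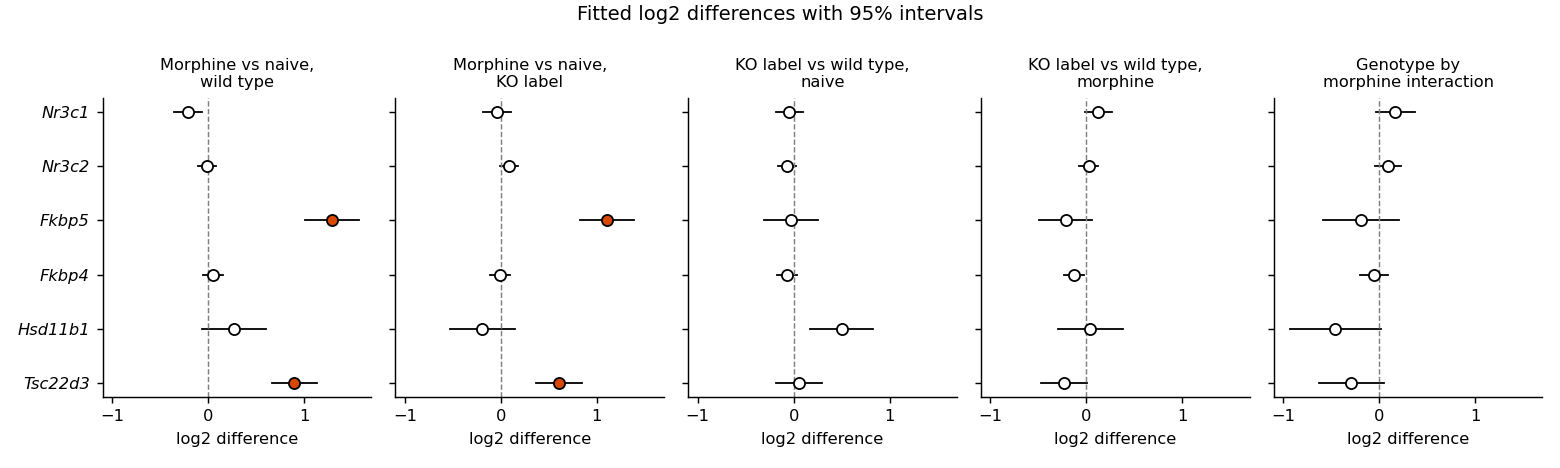
Fitted log2 difference of each gene (horizontal, with 95% interval) in the 2 morphine comparisons, the 2 genotype comparisons and their interaction. Filled points passed an edgeR adjusted p under 0.05: Fkbp5 at 1.29 and 1.10 and Tsc22d3 at 0.90 and 0.61 with morphine, and none in the other panels.

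The genes whose pattern was most like that of Fkbp5 over the 16 libraries were sought among 12754 expressed genes, by the root mean square difference of centred log2 CPM. The nearest were Nrros, a regulator of reactive oxygen species (0.177), Tma16, a ribosome assembly factor (0.195), and Hif3a, of the hypoxia-inducible factor family (0.217), where the median gene was at 0.634. Nrros rose by 1.33 ± 0.11 in wild type and 1.19 ± 0.11 in the knockout label, from 4.91 ± 0.56 to 12.4 ± 0.65 CPM and from 5.20 ± 0.61 to 12.0 ± 1.75 CPM. For Tsc22d3 the nearest were Dio2, which activates thyroid hormone (0.0914), Ddit4, an inhibitor of mTOR signalling (0.135), and Mertk, a receptor of phagocytosis (0.137), with the median gene at 0.422. Dio2 rose by 0.98 ± 0.12 in wild type and 0.49 ± 0.12 in the knockout label (edgeR adjusted p = 0.00023 and 0.0165). These genes were picked for likeness over the same 16 libraries, so their rise with morphine follows from the choice and is no separate result. The median distances lie near the SD of Fkbp5 and Tsc22d3 themselves (0.649 and 0.427), as for a gene that does not vary.

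Of 32 other genes known to be induced by glucocorticoids, 20 were higher with morphine in wild type and 21 in the knockout label. None was called lower in either. Of all genes tested, 2.34% and 5.67% were called higher. As the labels name no vehicle group, handling and injection cannot be told apart from the drug here. By DESeq2's Wald test 22 and 24 rose, and by limma-voom 22 and 20. At an unadjusted edgeR p under 0.05 were 23 and 25, against 20.1% and 25.5% of all genes. The median log2 fold change of the list was 0.57 and 0.55, where the median of all genes was -0.01 and 0.00. The list was drawn up with earlier results of these data known and is no independent evidence of direction. Cdkn1a, an inhibitor of the cell cycle, rose by 2.23 ± 0.16 and 1.98 ± 0.16, and Arrdc2, an arrestin domain gene, by 1.47 ± 0.13 and 0.93 ± 0.13. Errfi1, an inhibitor of EGF receptor signalling, rose by 0.70 ± 0.08 and 0.51 ± 0.08. Klf15, a transcription factor, rose by 0.66 ± 0.07 and 0.37 ± 0.07, and Nfkbia, an inhibitor of NF-kappaB, by 0.72 ± 0.10 and 0.81 ± 0.11. The genes called in both genotypes numbered 17, which is 85.0% of the wild-type and 81.0% of the knockout-label calls. With the serotonin score as a covariate, 18 were called in wild type (median 0.51) and 2 in the knockout label (median 0.54). Without wild-type naive 2 and knockout morphine 3 the counts were 22 and 18.

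Of 20 genes of the receptor's chaperone machinery, 2 rose in wild type (of all genes, 2.34% did), the Hsp40 genes Dnajb1 (0.29 ± 0.06, from 53.2 ± 0.89 to 65.1 ± 7.89 CPM) and Dnaja1 (0.16 ± 0.04, from 173 ± 7.73 to 193 ± 7.30 CPM), and 0 fell. At an unadjusted edgeR p under 0.05 were 6 of the 20 (of all genes, 20.1% were), and DESeq2's Wald test called 4. The list's median was 0.05. In the knockout label 0 were called by edgeR, DESeq2 or limma-voom (median 0.04). There 1 had an unadjusted edgeR p under 0.05 (of all genes, 25.5% did). The 2 with the smallest p were Dnaja1 at 0.10 ± 0.04 and Hspa8, a constitutive Hsp70, at 0.13 ± 0.06 (edgeR adjusted p = 0.128 and 0.2). The wild-type count of 2 became 1 when naive 1, 2 or 3, or morphine 1, 2 or 4, of the wild type was left out, 5 without naive 4, and 0 without both libraries that stood apart.

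Genes that make, convert or carry steroids passed no test with morphine. Of all genes, 20.1% in wild type and 25.5% in the knockout label had an unadjusted edgeR p under 0.05, and 4.41% and 11.5% were called. Of 18 listed, 11 had enough counts, and 0 were called by edgeR, DESeq2 or limma-voom in either genotype (1 in wild type and 3 in the knockout label at an unadjusted edgeR p under 0.05; median -0.07 and -0.01). Closest in wild type was Abcb1b, a drug and steroid efflux pump, at -0.33 ± 0.11 (edgeR adjusted p = 0.0848), and in the knockout label Akr1c14, a steroid reductase, at -0.56 ± 0.20 (edgeR adjusted p = 0.0773). Of 19 coregulators, 0 passed edgeR's test in wild type (4 at an unadjusted edgeR p under 0.05, 1 by DESeq2 and 1 by limma-voom; median -0.03). In the knockout label 3 of the 19 fell and 8 had an unadjusted edgeR p under 0.05 (median -0.08). The 3 that fell were the coactivator Ncoa3 (-0.24 ± 0.05), the histone methyltransferase Kmt2d (-0.20 ± 0.05) and the corepressor Nrip1 (-0.16 ± 0.05). The knockout naive libraries serve this comparison and the naive genotype comparison alike, and Ncoa3 was also higher in them than in wild-type naive libraries (0.23 ± 0.05, edgeR adjusted p = 0.0199). The 3 calls became 1 without knockout morphine 1 and 0 when the serotonin score was a covariate. In wild type the count became 2 lower without wild-type naive 4, and 1 higher without knockout naive 3, knockout morphine 3 or knockout morphine 4.

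Among 9 tested genes of the hormone axis that drives corticosteroid release, 0 passed edgeR's test in wild type (2 at an unadjusted edgeR p under 0.05, 0 by DESeq2 and 1 by limma-voom; median 0.14). Of all genes, 4.41% were called there and 20.1% had an unadjusted edgeR p under 0.05. The wild-type count became 1 without wild-type naive 1 or 4. In the knockout label 1 rose and 3 had an unadjusted edgeR p under 0.05 (of all genes, 5.67% and 25.5% did; median 0.22). Without wild-type naive 4, 1 also fell. Crhr2, a receptor of the corticotropin-releasing hormone family, was the gene that rose, by 1.83 ± 0.37, from 0.57 ± 0.12 to 2.04 ± 1.17 CPM. Among relatives of Nr3c1, the estrogen receptor genes Esr2 and Esr1 rose in the knockout label by 1.34 ± 0.26 and 0.39 ± 0.08. Esr2 was low in level, going from 0.84 ± 0.15 to 2.12 ± 0.98 CPM, and Esr1 went from 10.5 ± 0.7 to 13.7 ± 0.7 CPM. Pgr, the progesterone receptor gene, was at 0.05 ± 0.05 in that label (edgeR adjusted p = 0.622). In wild type edgeR called 0 of these 3, as did DESeq2 and limma-voom, and 0 had an unadjusted edgeR p under 0.05. Crhr2, Esr2 and Esr1 were no longer called with the serotonin score as a covariate, a score that did not overlap between knockout naive and knockout morphine libraries. Esr1 was also lower in knockout naive than in wild-type naive libraries (-0.34 ± 0.07, edgeR adjusted p = 0.0321).

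**Figure D5:**
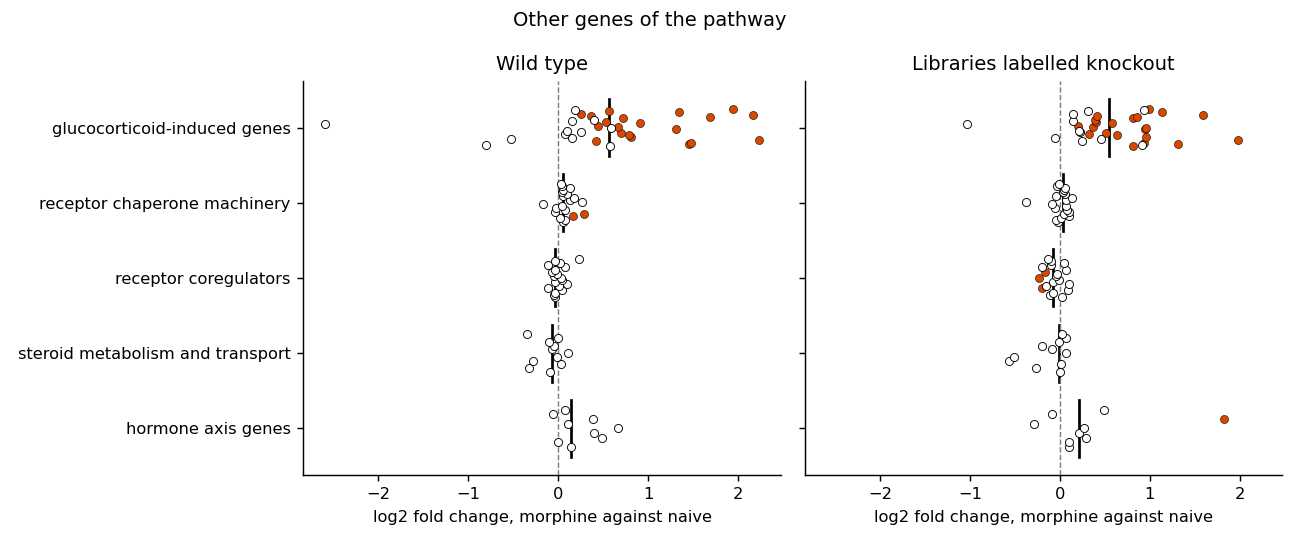
Log2 fold change with morphine (horizontal) of each tested gene of 5 further lists in wild type (left) and in libraries labelled knockout (right); filled points passed an edgeR adjusted p under 0.05 and bars mark medians. The glucocorticoid-induced genes have medians of 0.57 and 0.55 with 20 and 21 filled points, and the medians of the other lists lie between -0.08 and 0.22.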

How the data were processed

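Read counts per gene were deposited as whole numbers, 1 table per library. The authors used HTSeq, limma and mm10, per the submitters' processing notes; the aligner used, like the annotation release and the counting strand, is not given in the sources used here. The TruSeq RNA v2 kit named in the labels does not mark the strand. HTSeq's tallies of unassigned reads, 38.2 to 40.6% of each total, were left out.

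Symbols matched 37607 of 38924 identifiers; positions and exon lengths came from GENCODE M21 (GRCm38). The 18111 genes kept by filterByExpr (minimum count 10) were TMM-scaled and tested in 1 edgeR 4.0.16 quasi-likelihood fit of all 16 libraries (R 4.3.3), Benjamini-Hochberg adjusted over all genes, threshold 0.05. Within-library ratios used counts plus 1 and exact permutation. The fit was checked on simulated data in which all genes had the same spread. That check does not cover genes with a wider spread than most, as Fkbp5, Tsc22d3 and Hsd11b1 have. The labels call the pools of a group biological replicates, and no 2 of them agreed within sampling noise (chi-square per gene of at least 3.72).

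The members, lists, tests and alternatives were chosen with earlier results of these data known. Named were all members and Rgs20, up to 4 genes of a list by smallest p, and the 3 genes most alike in pattern to each called member. Alternatives were DESeq2's size factors, its Wald test (DESeq2 1.42.0), limma-voom (limma 3.58.1), other count filters, the compared groups alone, a replicate block, marker scores as covariates, thinning to 19.1 M, another added count, and leaving out libraries. 1 listed gene is not reported here by name.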

Additional observations from a re-analysis of the deposited data

Results flagged for a closer look

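In 1 of 32 groups of 4 libraries tested, a single library lay far from the other 3. This was the log2 ratio of Fkbp5 to Fkbp4 counts in wild-type naive libraries, where naive 2 was highest at -2.369 and the other 3 lay between -2.68 and -2.65. Chance alone marks about 1 group in 20 by the criterion used (Dixon's test at the 95% level). Naive 2 is also the wild-type library with the highest meningeal fibroblast marker score (2.54), and whether this bears on its ratio was not tested. Without it the difference between morphine and naive libraries was 1.32 on the log2 scale, against 1.25 with it.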

How the results depend on the processing

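The calls of Fkbp5 and Tsc22d3 held with all libraries thinned to the smallest total. The spread between pools limits what can be called: the 95% interval of Hsd11b1 with morphine in wild type ran from -0.07 to 0.60 on the log2 scale. Over all alternatives and comparisons of single genes, 1080 values kept their direction and their side of the threshold, 28 changed sign, 7 passed only in the alternative and 1 no longer passed; the cause of these changes was not tested.

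Of the values that changed sign, none passed the threshold. The largest in size was -0.1683, for Hsd11b1 with morphine on average with the serotonin score, against 0.0373 without the covariate. Without wild-type naive 2 and knockout morphine 3, Nr3c1 in the knockout label was 0.0108, Fkbp5 between naive labels 0.0568, Nr3c2 between morphine labels -0.0175 and Hsd11b1 with morphine on average -0.0277. With the serotonin score as a covariate, Nr3c2 with morphine in wild type was 0.0095, Nr3c1 in the knockout label 0.061, Hsd11b1 between morphine labels -0.0063 and Hsd11b1 with morphine on average -0.1683. With the meningeal score, Nr3c2 with morphine in wild type was 0.0022 and Fkbp5 between naive labels 0.0624. With thinned libraries, Fkbp4 with morphine in the knockout label was 0.0097. Leaving out 1 library at a time, ranges that crossed 0 were -0.0296 to 0.0052 for Nr3c2 and -0.014 to 0.0858 for Fkbp4 with morphine in wild type, and -0.1111 to 0.0115 for Nr3c1 and -0.0276 to 0.02 for Fkbp4 in the knockout label. Between naive labels they were -0.1364 to 0.0564 for Fkbp5 and -0.0219 to 0.1559 for Tsc22d3, and between morphine labels -0.0184 to 0.0497 for Nr3c2 and -0.0583 to 0.169 for Hsd11b1. For the interaction of Fkbp4 the range was -0.0935 to 0.0064, and for the average morphine difference -0.0108 to 0.0391 for Fkbp4 and -0.0268 to 0.0868 for Hsd11b1.

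The count of the 6 genes called with morphine in the knockout label was 2, and 1 with the serotonin score as a covariate; between naive labels it was 0, and 1 with DESeq2's Wald test. Leaving out 1 library, the log2 ratio of Nr3c1 to Nr3c2 differed by -0.232 to -0.178 in wild type (exact permutation p = 0.0286 to 0.0571) and by -0.22 to -0.032 in the knockout label (exact permutation p = 0.0286 to 0.714). Counts over all genes by edgeR were 798 with morphine in wild type, 2082 in the knockout label and 3089 on average, and 164, 96 and 277 between labels when naive, with morphine and on average, with 0 interactions. DESeq2's Wald test called 1242 in wild type, 376, 202 and 434 between labels and 107 interactions. The compared groups alone gave 410 in wild type. The serotonin score gave 342 in wild type, 351 in the knockout label and 490 on average. Without the 2 libraries that stood apart, 104 and 236 were called between naive and morphine labels and 64 interactions; thinning gave 101 between naive labels, and no filter and the meningeal score gave 1 interaction each. Leaving out 1 library gave 378 (wild-type naive 3) to 1252 (wild-type naive 4) in wild type and 1037 (knockout naive 2) to 2341 in the knockout label. It gave 68 (knockout naive 2) to 210 between naive labels, 49 (knockout morphine 4) to 129 between morphine labels, and 0 to 56 interactions (knockout morphine 3).

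Replicate numbers are shared by the groups, and no label says whether they mark a shared batch. Same-numbered libraries deviated together in 5 of 24 pairs (correlation over 0.1, range -0.414 to 0.303). With 4 libraries per group, these correlations cannot show whether the numbers pair the libraries. With the replicate number as a block, the same number of the 6 genes was called in every comparison, and over all genes 512 were called with morphine in wild type and 89 between naive labels. Paired by number, the log2 ratio differences were 1.25 and 1.115 for Fkbp5 to Fkbp4 and -0.197 for Nr3c1 to Nr3c2 in wild type, each with an exact permutation p = 0.125, the smallest that 4 pairs can give.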
